A study of Mus musculus with 18 samples.

Results

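A set of 10 genes, 7 for Fos and Jun transcription factors and 3 for other products of the immediate early response, was followed across 6 genotypes of mouse embryonic stem cells. The members were taken by name from the deposited expression table of 56551 genes, in which all 10 were found: Fos, Fosb, Fosl1 and Fosl2 of the Fos family, Jun, Junb and Jund of the Jun family, the zinc finger factors Egr1 and Klf6, and Ier2. The groups were wild-type cells (WT), Ring1a-KO, Ring1b-KO, Ring1a/b-dKO, Pcgf-4KO, which lacks Pcgf1, Pcgf3, Pcgf5 and Pcgf6, and Pcgf-6KO, which lacks Pcgf2 and Pcgf4 in addition, with 3 libraries each and 18 in all. Ring1a and Ring1b are the alternative catalytic subunits of Polycomb repressive complex 1 (PRC1), and the Pcgf proteins are the subunits that define its variants. The labels give no clone, passage, parental line or means of deletion, and do not say whether replicates are separate cultures, so the p-values measure the spread between these libraries, which may be technical. According to the labelled protocol, cells were detached with trypsin before lysis and total RNA went into the libraries.

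Immediate early genes are transcribed within minutes of a growth factor, stress or serum signal without a need for new protein, through kinase cascades that act on factors already bound at their promoters. Fos and Jun proteins pair through leucine zippers to form AP-1, which binds DNA at a short palindromic site. Jun proteins can pair with each other as well as with Fos proteins, whereas Fos proteins need a partner. In embryonic stem cells growing without such a stimulus the Fos genes are low, and AP-1 is better known from cells that leave pluripotency.

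The table holds TPM (transcripts per 1000000), a level scaled for transcript length and for the total of each library, so that levels can be compared between genes. Read depth cannot be read from TPM, and values carry no counting interval. Genes detected at 1 TPM or above numbered 14207 to 14225 in the WT libraries and 16236 to 16585 in Pcgf-6KO. Of the targeted genes, Rnf2, which encodes Ring1b, was at 65.9 to 76.4 TPM in WT, 47.4 to 53.0 TPM in Ring1b-KO and 19.4 to 24.7 TPM in Ring1a/b-dKO. Ring1, which encodes Ring1a, was at 7.10 to 7.42 TPM in WT, 2.86 to 5.46 TPM in Ring1a-KO and 2.74 to 9.40 TPM in Ring1a/b-dKO, where the range overlapped WT. Pcgf6 was at 0.00 to 0.10 TPM in Pcgf-4KO and at 9.73 to 11.2 TPM in Pcgf-6KO against 52.8 to 53.3 TPM in WT, while Pcgf3 in Pcgf-6KO (10.2 to 15.1 TPM) overlapped its WT range of 12.7 to 13.5 TPM. Pcgf5 was above WT (9.01 to 10.1 TPM) in both Pcgf-4KO (13.2 to 15.7 TPM) and Pcgf-6KO (21.0 to 23.3 TPM), and Bmi1 (Pcgf4) was at 0.88 to 2.50 TPM in WT and 14.3 to 16.3 TPM in Pcgf-6KO. Since the labels do not say which exons were removed, gene-level values do not check the labels of those genes. The summed TPM of 8 embryonic stem cell markers was 3077 to 3113 in WT and 1085 to 1143 in Pcgf-6KO, and all 8 were above 1 TPM on average in every group. Small RNA genes took 2.72% and 1.27% of TPM in replicates 2 and 3 of Ring1a-KO, while the other 16 libraries ranged from 0.209% to 0.634%. Results on Ring1a-KO were repeated without that pair.

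The Fos and Jun genes were low to moderate in WT and were called in mixed directions in the cells lacking Ring1a or Ring1b alone. In the cells lacking both Ring1 proteins, or 4 or 6 Pcgf proteins, Fos, Fosl1, Fosl2, Jun and Jund rose, as did Junb in Ring1a/b-dKO and Pcgf-6KO and Fosb in Pcgf-6KO. Summed over the 10 members, the level was 175 to 178 TPM in WT, 148 to 154 TPM in Ring1a-KO, 150.2 to 162.6 TPM in Ring1b-KO, 379 to 396 TPM in Ring1a/b-dKO, 400.1 to 417 TPM in Pcgf-4KO and 553 to 571 TPM in Pcgf-6KO. The last 3 groups lay above all libraries of the first 3 without overlap, and the Ring1a-KO and Ring1b-KO libraries lay below WT. The mean Fos and Jun family totals, given below, were not below WT in either single knockout. In these bulk samples, a change in the number of cells that express a gene and a change in RNA per cell cannot be told apart.

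Changes were tested with limma on log2(TPM + 1) over all 18 libraries and 17842 genes, and a gene was called at a Benjamini-Hochberg adjusted p under 0.05. On this scale the change of a gene near or below 1 TPM is understated. All 10 members passed the filter on low values, but Fosb passed only through its Pcgf-6KO libraries, so its difference there was bound up with its entry. Against WT, 2 members were called higher and 3 lower in Ring1a-KO, beside 12.3% and 10.8% of all genes tested. In Ring1b-KO, 3 were called higher and 3 lower, beside 34.7% and 17.1% of all genes. In Ring1a/b-dKO, 9 members were called higher and 0 lower, with 48.6% and 15.8% of all genes called in those directions, and the member left uncalled was Fosb. In Pcgf-4KO, 9 were called higher and 1 lower (background 47.1% and 17.9%), and in Pcgf-6KO, 8 higher and 2 lower (51.7% and 22.5%). The members' median log2 change was 0.04, -0.06, 1.58, 1.55 and 2.44 in these 5 comparisons, beside 0.01, 0.13, 0.28, 0.25 and 0.33 over all genes tested. The 5 comparisons share the WT libraries.

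Scaling each library to the median gene ratio instead of TPM moved the median of all genes to between -0.01 and 0.04 in every comparison with WT, a shift of about the all-gene medians above. Under that scaling the members' counts were 8 higher and 0 lower in Ring1a/b-dKO, 6 higher and 1 lower in Pcgf-4KO, and 8 higher and 2 lower in Pcgf-6KO. Of all genes, 64.4%, 64.7% and 73.9% were called under it in these comparisons, both directions together. The split of all genes by direction was not counted under the alternatives, here or below, and the shares above are those of the main fit. In Ring1b-KO the split of 3 higher and 3 lower became 2 and 4 under median ratio scaling and 1 and 5 under quantile normalization. Of all genes, 54.4% and 51.9% were called there under these settings, both directions together. The members whose call in Pcgf-4KO was lost by both scalings were Fosb, Junb and Ier2. In Ring1a/b-dKO, quantile normalization kept the calls of Egr1, Fos, Fosl2 and Junb at smaller log2 changes of 0.22, 1.14, 0.99 and 0.59, and in Pcgf-6KO that of Fosb at 0.80. Under it the falls of Egr1 in Pcgf-4KO and Ier2 in Pcgf-6KO were larger, at -0.65 and -0.45. With a pseudocount of 0.1 in place of 1, the log2 change of Fosb in Pcgf-6KO was 2.94, and those of Fosl2 and Fos in Ring1a-KO were 1.40 and -0.81.

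**Figure D1:**
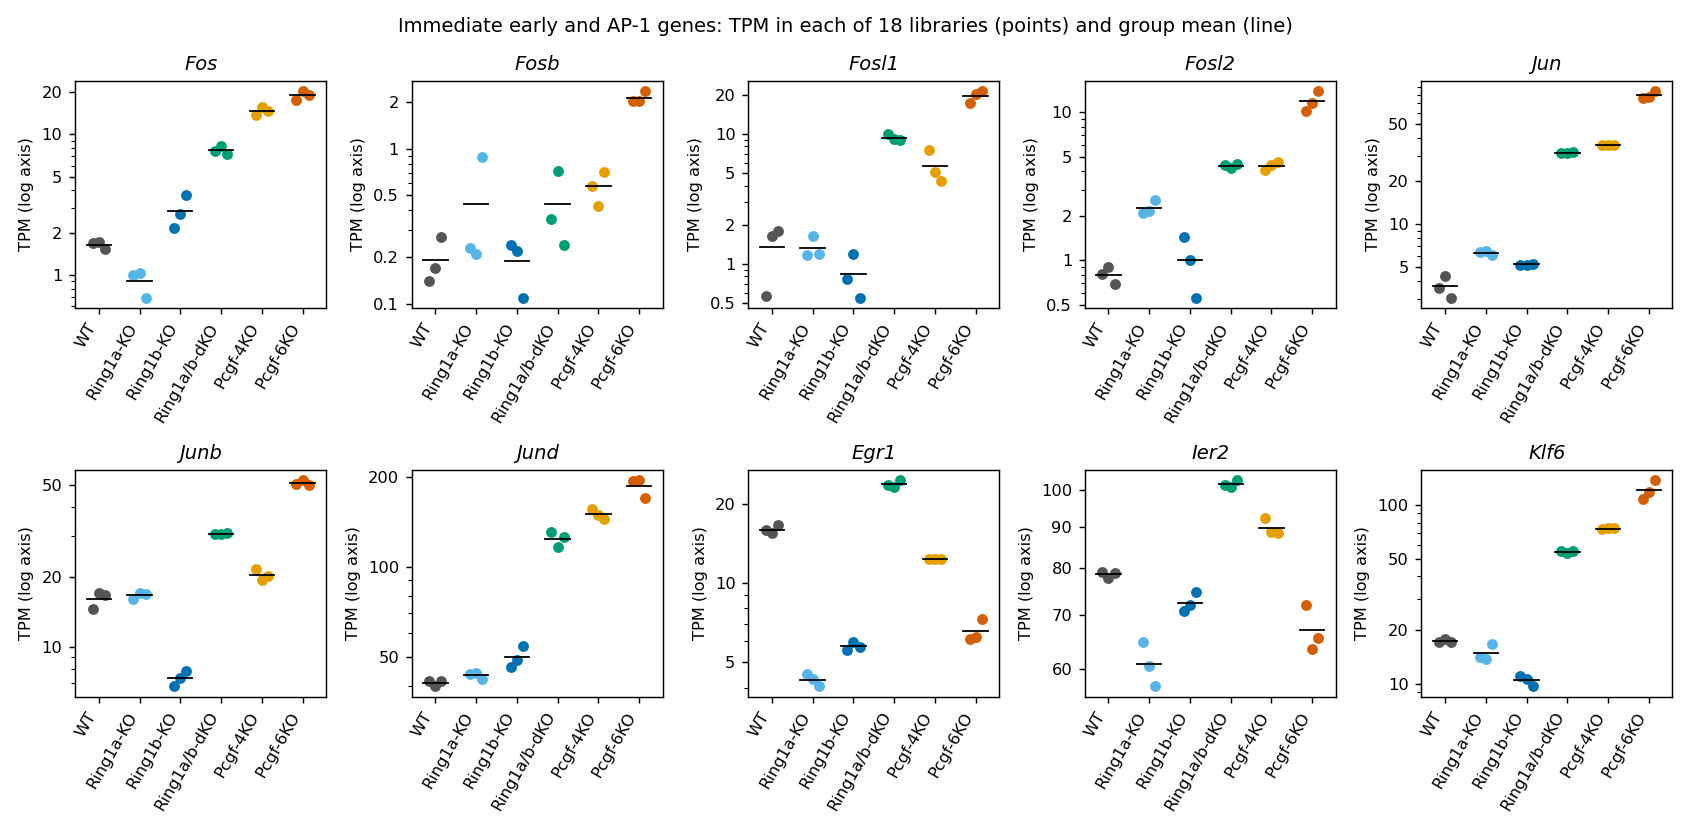
TPM of each of the 10 members in the 18 libraries on log axes, with points for libraries and a line for the mean of each group of 3. Fos, Jun, Jund and Klf6 lie higher in all libraries of Ring1a/b-dKO, Pcgf-4KO and Pcgf-6KO than in WT, Ring1a-KO and Ring1b-KO, while Egr1 and Ier2 are highest in Ring1a/b-dKO.

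For 7 of the 10 members a promoter window was matched by symbol in the RefSeq set for GRCm38.p6, taken here as the 250 bases before the RefSeq start and, for Klf6, the part of it that precedes the GENCODE gene. The RefSeq start of Jund lies 1210 bases before its GENCODE gene and that of Fosl2 lies 671 bases inside it, so these 2 windows were left out of the counts that follow, which cover Fos, Fosb, Jun, Junb and Klf6. All 5 windows held more CpG dinucleotides than the median window of 6 among 32851 mouse promoter windows. The windows of 3 members are shown because these genes rise together in the results that follow and because they hold the only matches among the 5 to 2 of the motifs searched on both strands. Capitals mark TGACATCA in Jun and Klf6, an octamer known as a site for Jun paired with Atf2, and the TATA motif TATAAA in Fos.
Jun, chr4:95052223-95052472, minus strand: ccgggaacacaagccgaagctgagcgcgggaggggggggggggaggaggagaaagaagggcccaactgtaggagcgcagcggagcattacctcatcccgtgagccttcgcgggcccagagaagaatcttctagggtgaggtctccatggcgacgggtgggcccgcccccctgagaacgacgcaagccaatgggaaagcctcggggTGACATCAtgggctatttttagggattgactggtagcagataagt
Klf6, chr13:5861239-5861481, plus strand: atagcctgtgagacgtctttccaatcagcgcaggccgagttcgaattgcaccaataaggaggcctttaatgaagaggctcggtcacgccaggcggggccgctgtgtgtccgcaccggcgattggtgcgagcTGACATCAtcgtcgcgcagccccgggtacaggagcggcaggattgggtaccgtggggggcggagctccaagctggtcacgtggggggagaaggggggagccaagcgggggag
Fos, chr12:85473640-85473889, plus strand: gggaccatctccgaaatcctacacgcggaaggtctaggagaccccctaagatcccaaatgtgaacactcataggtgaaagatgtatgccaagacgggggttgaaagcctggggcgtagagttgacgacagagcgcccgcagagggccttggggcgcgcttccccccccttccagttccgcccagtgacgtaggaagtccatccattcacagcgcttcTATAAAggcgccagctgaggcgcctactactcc
The Jun octamer lay 45 to 38 bases before the RefSeq start and that of Klf6 119 to 112 bases before it, and the Fos TATA motif lay 33 to 28 bases before the start. TGACATCA was found in 2.93% of all windows of the same length and TATAAA in 12.4%. Other variants of TGACGTCA were not searched, and a difference between member windows and all windows was not tested for any motif. The GC box GGGCGG was in 4 of the 5 member windows and in 32.7% of all windows. The AP-1 site TGANTCA, the cyclic AMP response element TGACGTCA, the EGR site GCGTGGGCG and the CArG box were in 0 of the 5, and in 6.75%, 1.55%, 0.536% and 1.47% of all windows. These are matches of letters in a window of 250 bases, and the windows hold no binding data. Sites further upstream, or with letters that depart from the motif, were not counted, so a count of 0 does not show that a promoter lacks such a site. The member genes were also short: 9 of 10 spanned at most 10000 bp, as did 26.1% of the 14345 protein-coding genes tested, whose median span was 22738 bp.

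Fos, the founding member of its family and an unstable protein made in bursts after stimulation (chr12:85473890-85477273, GRCm38, plus strand), was at 1.70, 1.71 and 1.53 TPM in WT and at 1.0, 1.03 and 0.69 TPM in Ring1a-KO. It was at 2.17, 2.73 and 3.68 TPM in Ring1b-KO and 7.63, 8.32 and 7.21 TPM in Ring1a/b-dKO. Pcgf-4KO libraries had 13.8, 15.6 and 14.6 TPM and Pcgf-6KO libraries 17.4, 20.2 and 19.2 TPM. No 2 groups overlapped, and the order ran from Ring1a-KO through WT, Ring1b-KO, Ring1a/b-dKO and Pcgf-4KO to Pcgf-6KO, a 20.9-fold span of means. Against WT the log2 change was 1.72 ± 0.12 (SE) in Ring1a/b-dKO (limma adjusted p = 6.16e-09), 2.56 ± 0.12 in Pcgf-4KO (adjusted p = 6.36e-11) and 2.91 ± 0.12 in Pcgf-6KO (adjusted p = 7.35e-12). The single knockouts moved apart, with a log2 change of -0.48 in Ring1a-KO (limma adjusted p = 0.00968) and 0.53 in Ring1b-KO (adjusted p = 0.00182). The fall in Ring1a-KO was not called without its replicates 2 and 3 (-0.40, limma adjusted p = 0.153), and the rise in Ring1b-KO was not called under quantile normalization (0.15, adjusted p = 0.325). The Fos level in Pcgf-6KO was above that in Pcgf-4KO by 0.35 (limma adjusted p = 0.0239), a call lost when Pcgf-4KO replicate 1 or 3, or Pcgf-6KO replicate 2 or 3, was left out, where the difference was 0.30 to 0.35 with adjusted p of 0.0523 to 0.0856. It was also lost under quantile normalization and with a pseudocount of 0.1 (limma adjusted p = 0.0512 and 0.0763).

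Fosl1 (Fra-1, chr19:5447547-5455946, plus strand), which lacks the activation domain of Fos and is itself a classical AP-1 target, was at 0.57, 1.65 and 1.79 TPM in WT, 1.16, 1.63 and 1.19 TPM in Ring1a-KO and 0.77, 1.20 and 0.55 TPM in Ring1b-KO. It was at 9.95, 9.08 and 8.97 TPM in Ring1a/b-dKO, at 7.45, 5.06 and 4.36 TPM in Pcgf-4KO and at 17.2, 20.1 and 21.2 TPM in Pcgf-6KO. The first 3 groups overlapped one another and the last 3 lay above them, with Ring1a/b-dKO above Pcgf-4KO. The log2 change from WT was 2.19 ± 0.21 (SE) in Ring1a/b-dKO (limma adjusted p = 2.04e-07), 1.52 ± 0.21 in Pcgf-4KO (adjusted p = 1.1e-05) and 3.17 ± 0.21 in Pcgf-6KO (adjusted p = 1.7e-09). In Ring1a-KO the change was 0.03, with a 95% interval of -0.41 to 0.48, and in Ring1b-KO -0.31, with an interval of -0.76 to 0.13. WT replicate 1 stood below the others, and without it the Ring1b-KO change was -0.58 (limma adjusted p = 0.017). The lower level in Pcgf-4KO than in Ring1a/b-dKO (-0.67, limma adjusted p = 0.0204) was not called without Ring1a/b-dKO replicate 1 or Pcgf-4KO replicate 2 or 3 (-0.63 to -0.53, adjusted p 0.0629 to 0.0932), nor under quantile normalization or a pseudocount of 0.1 (adjusted p = 0.065 and 0.0962). The Fosl1 locus overlaps Ccdc85b on the other strand over 2767 bp. The use of strand in counting is not given in the sources used here, so reads of such a pair cannot be told apart, and Ccdc85b itself was at 6.20 ± 0.29 TPM (SD, n = 3) in WT and 4.14 ± 0.34 TPM in Pcgf-6KO.

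Fosl2 (Fra-2, chr5:32135801-32157842, plus strand), the other Fos relative without a strong activation domain, was at 0.81, 0.90 and 0.69 TPM in WT and at 1.44, 1.0 and 0.56 TPM in Ring1b-KO. Ring1a-KO libraries had 2.09, 2.14 and 2.57 TPM. Levels were 4.43, 4.22 and 4.45 TPM in Ring1a/b-dKO, 4.08, 4.42 and 4.60 TPM in Pcgf-4KO and 10.2, 11.5 and 13.8 TPM in Pcgf-6KO. Fosl2 was the Fos family gene called higher in Ring1a-KO, where all 3 libraries lay above WT and Ring1b-KO overlapped WT. The log2 change was 0.86 ± 0.14 (SE) in Ring1a-KO (limma adjusted p = 0.000375) and 0.13 in Ring1b-KO (95% interval -0.17 to 0.43). It was 1.58 ± 0.14 in both Ring1a/b-dKO and Pcgf-4KO (limma adjusted p = 8.25e-08 and 8.49e-08) and 2.83 ± 0.14 in Pcgf-6KO (adjusted p = 5.53e-11). The Ring1a/b-dKO and Pcgf-4KO libraries overlapped, and their difference had a 95% interval of -0.30 to 0.30.

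Fosb (chr7:19302696-19310051, minus strand), a close relative of Fos, was the least abundant member. It was at 0.14, 0.17 and 0.27 TPM in WT, 0.23, 0.21 and 0.88 TPM in Ring1a-KO, 0.24, 0.22 and 0.11 TPM in Ring1b-KO, 0.35, 0.72 and 0.24 TPM in Ring1a/b-dKO, 0.57, 0.43 and 0.71 TPM in Pcgf-4KO and 2.02, 2.01 and 2.33 TPM in Pcgf-6KO. The Pcgf-6KO libraries stood clear of the other 15, with a log2 change from WT of 1.39 ± 0.16 (SE, limma adjusted p = 1.28e-06). Since Fosb passed the filter only through these libraries, that call was bound up with its entry. The change of 0.39 in Pcgf-4KO passed narrowly (limma adjusted p = 0.0428), and leaving out any 1 of WT replicates 1, 2 and 3 or Pcgf-4KO replicates 1 and 3 ended the call (0.33 to 0.44, adjusted p 0.0532 to 0.132). In Ring1a-KO, Ring1b-KO and Ring1a/b-dKO it was not called, with changes of 0.24, 0.00 and 0.26.

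Jun (chr4:95049034-95052222, minus strand), the strongest transactivator of its family and able to act on its own promoter, had the largest changes of the 10 members in Ring1a/b-dKO, Pcgf-4KO and Pcgf-6KO. It was at 3.59, 4.35 and 3.06 TPM in WT, 6.41, 6.49 and 6.06 TPM in Ring1a-KO and 5.17, 5.20 and 5.29 TPM in Ring1b-KO. Levels were 31.4, 31.3 and 31.9 TPM in Ring1a/b-dKO, 35.5, 35.4 and 35.8 TPM in Pcgf-4KO and 75.7, 77.5 and 84.3 TPM in Pcgf-6KO. Every knockout lay above WT without overlap, by 1.72-fold in Ring1a-KO, 1.42-fold in Ring1b-KO, 8.60-fold in Ring1a/b-dKO, 9.70-fold in Pcgf-4KO and 21.6-fold in Pcgf-6KO. The log2 changes of 0.66 ± 0.08 (SE) in Ring1a-KO (limma adjusted p = 1.7e-05), 2.81 ± 0.08 in Ring1a/b-dKO (adjusted p = 1.34e-13), 2.98 ± 0.08 in Pcgf-4KO (adjusted p = 5.14e-14) and 4.11 ± 0.08 in Pcgf-6KO (adjusted p = 8.8e-16) passed under every setting tried. The Ring1b-KO change of 0.42 (limma adjusted p = 0.000251) was not called under quantile normalization (0.14, adjusted p = 0.113). In Pcgf-6KO, Jun ranked 75 of 17842 genes by log2 change. Although the Jun libraries of Pcgf-4KO lay above those of Ring1a/b-dKO, the difference of 0.17 was not called (95% interval 0.01 to 0.33, limma adjusted p = 0.0978), but it was called under median ratio scaling (0.21, adjusted p = 0.0358) and with only the groups compared in the fit (0.17, adjusted p = 0.00364). The antisense gene Junos overlaps Jun over 689 bp and was at 0.41 ± 0.14 TPM (SD, n = 3) in WT and 1.09 ± 0.27 TPM in Pcgf-6KO, with the same limit on strand.

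Junb (chr8:84974484-84978718, minus strand), a weaker activator that can oppose Jun, was at 14.6, 17.1 and 16.7 TPM in WT and at 16.1, 17.0 and 16.9 TPM in Ring1a-KO. It was at 6.74, 7.36 and 7.86 TPM in Ring1b-KO, 30.7, 30.6 and 31.0 TPM in Ring1a/b-dKO, 21.6, 19.5 and 20.3 TPM in Pcgf-4KO and 50.7, 52.5 and 49.97 TPM in Pcgf-6KO. WT and Ring1a-KO overlapped, Ring1b-KO lay below both, and the other 3 groups lay above. In Ring1b-KO, Junb fell by 1.04 on the log2 scale (SE 0.06, limma adjusted p = 2.51e-09), whereas Jun in the same libraries did not fall. The rise was 0.89 ± 0.06 in Ring1a/b-dKO (limma adjusted p = 6.62e-09) and 1.61 ± 0.06 in Pcgf-6KO (adjusted p = 4.02e-12). The Pcgf-4KO change of 0.32 (limma adjusted p = 0.000313) was 0.02 under both median ratio scaling and quantile normalization, where it was not called (adjusted p = 0.847 and 0.841). Pcgf-4KO also lay below Ring1a/b-dKO by 0.57 (limma adjusted p = 6.17e-06). Junb shares 351 bp with Prdx2 on the other strand, with the same limit on strand. Prdx2 was at 222 ± 9.01 TPM (SD, n = 3) in WT, 233 ± 1.80 TPM in Ring1a-KO and 125 ± 1.89 TPM in Ring1b-KO. It was at 111 ± 5.61 TPM in Ring1a/b-dKO, 86.9 ± 5.38 TPM in Pcgf-4KO and 91.3 ± 6.31 TPM in Pcgf-6KO. Prdx2 was thus below WT in Ring1b-KO, as Junb was. A part of the overlap in the Junb values was not tested.

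Jund (chr8:70698949-70700616, plus strand), the constitutive Jun gene, was the most abundant member in Ring1a/b-dKO, Pcgf-4KO and Pcgf-6KO and second to Ier2 in the other groups. It was at 41.6, 39.8 and 41.5 TPM in WT, 43.7, 44.2 and 42.2 TPM in Ring1a-KO and 46.2, 48.8 and 54.4 TPM in Ring1b-KO. Levels were 130.5, 116 and 126 TPM in Ring1a/b-dKO, 156, 149 and 144 TPM in Pcgf-4KO and 194, 195 and 169 TPM in Pcgf-6KO. The last 3 groups did not overlap the first 3 or one another. The log2 change was 1.58 ± 0.06 (SE) in Ring1a/b-dKO (limma adjusted p = 1.55e-11), 1.84 ± 0.06 in Pcgf-4KO (adjusted p = 2.28e-12) and 2.15 ± 0.06 in Pcgf-6KO (adjusted p = 1.8e-13). The change of 0.27 in Ring1b-KO (limma adjusted p = 0.00244) was 0.10 and not called under median ratio scaling (adjusted p = 0.318), and the change of 0.08 in Ring1a-KO was not called (95% interval -0.06 to 0.22). The antisense gene Gm11175 overlaps Jund over 919 bp and was at 1.47 ± 2.54 TPM (SD, n = 3) in WT and 2.78 ± 3.50 TPM in Pcgf-6KO.

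**Figure D2:**
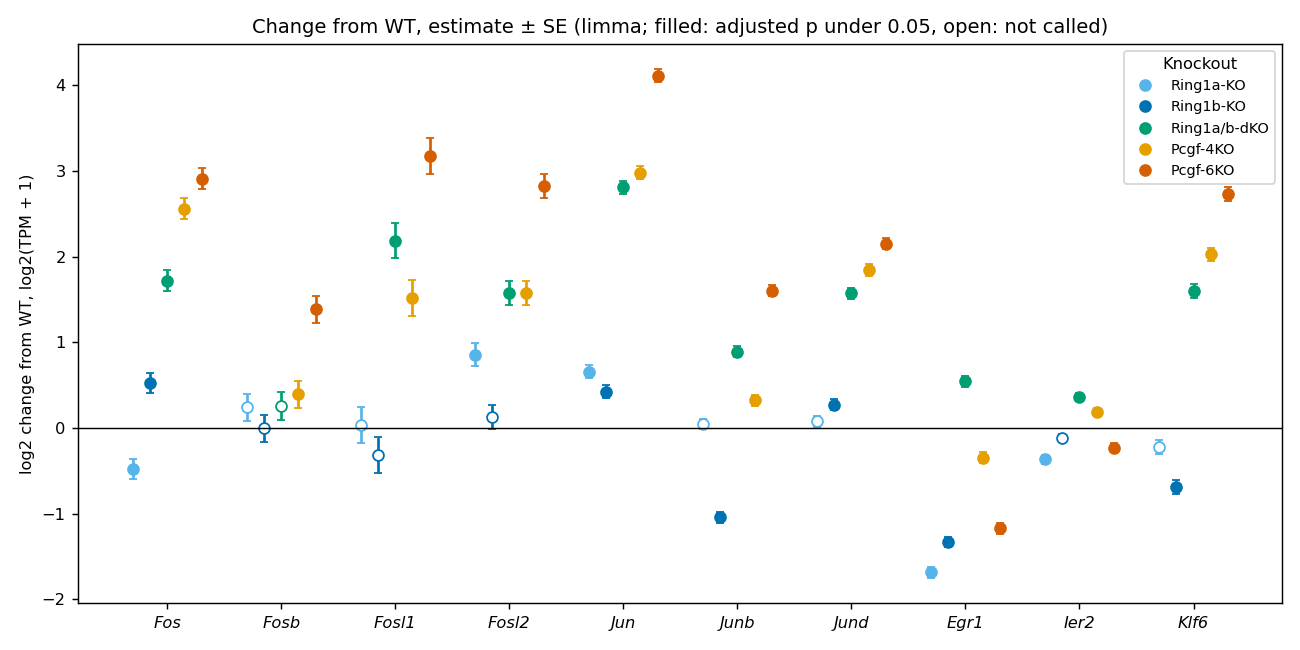
log2 change from WT of each member in the 5 knockouts, with points for the limma estimate, bars for its SE, filled points for calls and open points for changes not called. Jun reaches 4.11 in Pcgf-6KO, and Egr1 lies below 0 in 4 of the 5 knockouts and above 0 in Ring1a/b-dKO. The rise of Ier2 in Pcgf-4KO turned to -0.13 under median ratio scaling.

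Within the Fos family the total was 3.98 ± 0.66 TPM (SD, n = 3) in WT, 21.9 ± 0.85 TPM in Ring1a/b-dKO, 25.2 ± 0.88 TPM in Pcgf-4KO and 52.4 ± 5.00 TPM in Pcgf-6KO, while Ring1a-KO and Ring1b-KO had 4.94 ± 0.43 and 4.89 ± 0.27 TPM. The make-up of the total differed between groups with similar totals. In Ring1a-KO, Fosl2 held 45.9 ± 2.84% of the family's TPM and Fos 18.6 ± 4.98%, whereas in Ring1b-KO, Fos held 58.4 ± 14.8% and Fosl2 20.7 ± 9.93%. Likewise Fosl1 held 42.7 ± 1.94% in Ring1a/b-dKO, where Fos held 35.3 ± 1.69%, and 22.2 ± 5.74% in Pcgf-4KO, where Fos held 58.2 ± 4.23%. In WT the shares were spread widely, from 17.7% in replicate 1 to 41.8% for Fosl1. These shares are descriptions and were not tested.

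The Jun family total was 60.8 ± 0.86 TPM in WT and 316 ± 11.2 TPM in Pcgf-6KO (SD, n = 3), with 66.3 ± 1.28 TPM in Ring1a-KO, 62.3 ± 4.80 TPM in Ring1b-KO, 186 ± 7.40 TPM in Ring1a/b-dKO and 206 ± 6.76 TPM in Pcgf-4KO. Jund supplied the larger part in every group, from 58.8 ± 2.61% in Pcgf-6KO to 79.9 ± 0.59% in Ring1b-KO. The mean share of Jun was 6.03 ± 1.05% in WT, 16.9 ± 0.62% in Ring1a/b-dKO, 17.3 ± 0.62% in Pcgf-4KO and 25.1 ± 2.33% in Pcgf-6KO. Junb held 26.6 ± 1.88% in WT, 11.7 ± 0.22% in Ring1b-KO and 9.94 ± 0.31% in Pcgf-4KO. The ratio of Jun family to Fos family TPM was 15.6 ± 2.60 in WT and 6.08 ± 0.74 in Pcgf-6KO, with the Jun family above the Fos family in both.

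**Figure D3:**
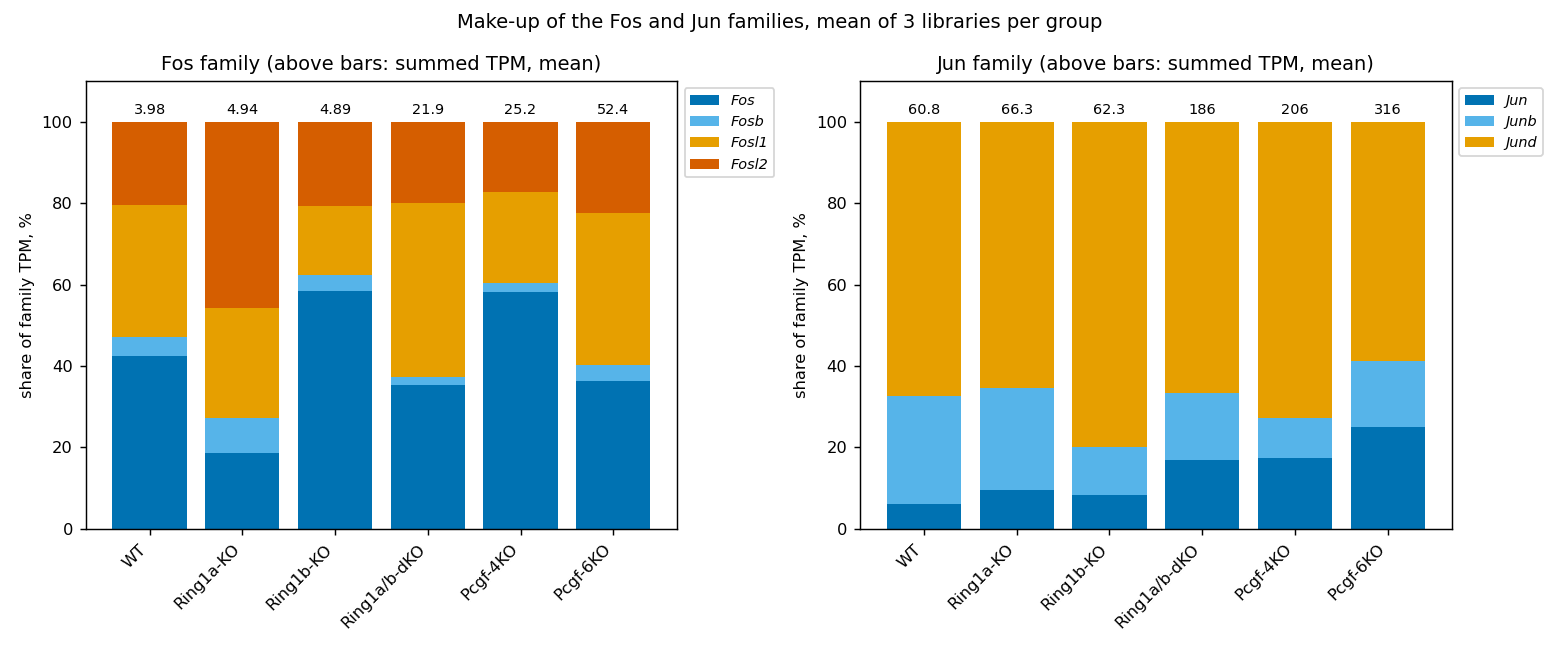
Mean share of each gene in the TPM of its family, in percent, for the Fos family (left) and the Jun family (right) in the 6 groups, with the summed TPM above each bar. Fosl2 has a larger mean share than Fos in Ring1a-KO and a smaller one in Ring1b-KO, and the Jun share is 6.03% in WT and 25.1% in Pcgf-6KO.

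Egr1 (chr18:34859823-34864984, plus strand), a zinc finger factor induced by the same kinase cascades as Fos, followed another order. It was at 15.8, 15.5 and 16.5 TPM in WT, 4.49, 4.32 and 4.04 TPM in Ring1a-KO and 5.54, 5.95 and 5.71 TPM in Ring1b-KO. Levels were 23.5, 23.2 and 24.6 TPM in Ring1a/b-dKO, 12.3, 12.3 and 12.4 TPM in Pcgf-4KO and 6.11, 6.25 and 7.30 TPM in Pcgf-6KO. Every library of 4 knockouts lay below WT, and every Ring1a/b-dKO library lay above it. Egr1 fell by 1.68 on the log2 scale in Ring1a-KO (SE 0.06, limma adjusted p = 1.46e-10), to a level 3.72-fold below WT, and by 1.33 in Ring1b-KO (adjusted p = 1.59e-10). It fell by 0.35 in Pcgf-4KO (limma adjusted p = 0.000196) and by 1.17 in Pcgf-6KO (adjusted p = 1.83e-10), and rose by 0.55 ± 0.06 in Ring1a/b-dKO (adjusted p = 1.78e-06). In Ring1a-KO, 0.33% of all genes tested had a lower log2 change. Pcgf-6KO and Ring1b-KO differed by 0.16 (limma adjusted p = 0.0333), and this turned to -0.01 and -0.12, not called, under median ratio scaling and quantile normalization.

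Klf6 (chr13:5861482-5870394, plus strand), a Krüppel-like zinc finger factor, was highest in Pcgf-6KO and lowest in Ring1b-KO. It was at 17.1, 17.9 and 17.2 TPM in WT, 14.1, 13.8 and 16.6 TPM in Ring1a-KO and 11.04, 10.6 and 9.69 TPM in Ring1b-KO. Levels were 55.8, 53.9 and 55.3 TPM in Ring1a/b-dKO, 73.4, 74.1 and 74.7 TPM in Pcgf-4KO and 108, 119 and 138 TPM in Pcgf-6KO. The 2 single knockouts lay below WT and the other 3 groups above it, all without overlap. Klf6 fell by 0.69 on the log2 scale in Ring1b-KO (SE 0.08, limma adjusted p = 3.87e-06) and rose by 1.60 ± 0.08 in Ring1a/b-dKO (adjusted p = 1.38e-10), 2.03 ± 0.08 in Pcgf-4KO (adjusted p = 9.19e-12) and 2.73 ± 0.08 in Pcgf-6KO (adjusted p = 1.48e-13). The Ring1a-KO change of -0.22 was not called (limma adjusted p = 0.0587). It was called lower without Ring1a-KO replicate 3 (-0.30, limma adjusted p = 0.015), and also under median ratio scaling and under quantile normalization.

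Ier2 (chr8:84661331-84662852, minus strand), an immediate early gene of less well understood function, varied least. It was at 79.2, 78.0 and 78.9 TPM in WT, 64.9, 60.6 and 57.2 TPM in Ring1a-KO, 70.9, 72.2 and 74.7 TPM in Ring1b-KO, 101, 101 and 103 TPM in Ring1a/b-dKO, 92.3, 88.7 and 88.5 TPM in Pcgf-4KO and 72.2, 63.6 and 65.6 TPM in Pcgf-6KO. Its highest group mean was 1.67-fold its lowest, against 4.54-fold to 23.2-fold in the other 9 members. Ier2 fell by 0.37 on the log2 scale in Ring1a-KO (SE 0.05, limma adjusted p = 6.82e-05) and by 0.23 in Pcgf-6KO (adjusted p = 0.000607). The rises of 0.37 in Ring1a/b-dKO (limma adjusted p = 8.55e-06) and 0.19 in Pcgf-4KO (adjusted p = 0.00335) depended on the scaling, since median ratio scaling gave 0.0025 and -0.13, neither called (adjusted p = 0.984 and 0.0936). The change of -0.12 in Ring1b-KO was not called (limma adjusted p = 0.0621), and was called at -0.29 under median ratio scaling (adjusted p = 0.00182).

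Ring1a and Ring1b can stand in for each other as catalytic subunits, so the double knockout was set beside the sum of the 2 single knockouts. The interaction, which is the Ring1a/b-dKO change minus that sum on the log2 scale, was called above 0 for 9 members and below 0 for 0, beside 33.2% and 15.5% of all genes tested. Its median over the members was 1.70 and over all genes 0.15. For Egr1 the single changes summed to -3.01 and the double knockout stood at 0.55, an interaction of 3.56 ± 0.09 (SE, limma adjusted p = 6.76e-13). For Klf6 the sum was -0.91 and the double knockout 1.60, and for Junb the sum was -0.996 and the double knockout 0.89. The interaction was 2.51 ± 0.11 for Klf6 (limma adjusted p = 2.6e-10) and 1.89 ± 0.09 for Junb (adjusted p = 3.94e-10). In these 3 genes at least 1 single knockout was called lower and the double knockout higher. The interactions of Fosl1 (2.47), Jun (1.73), Fos (1.67), Jund (1.22) and Ier2 (0.85) were also called (limma adjusted p from 6.64e-06 to 7.48e-09). That of Fosl2 (0.59, limma adjusted p = 0.0216) was not called without Ring1b-KO replicate 3 (0.42, adjusted p = 0.0518), without Ring1a-KO replicates 2 and 3 (0.67, adjusted p = 0.0501) or under 3 other settings. For Fosb the interaction was 0.02 (95% interval -0.47 to 0.50). On this scale a gene near 0 TPM has little room to fall, which applies to the Fos family and not to Egr1, Junb or Klf6.

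**Figure D4:**
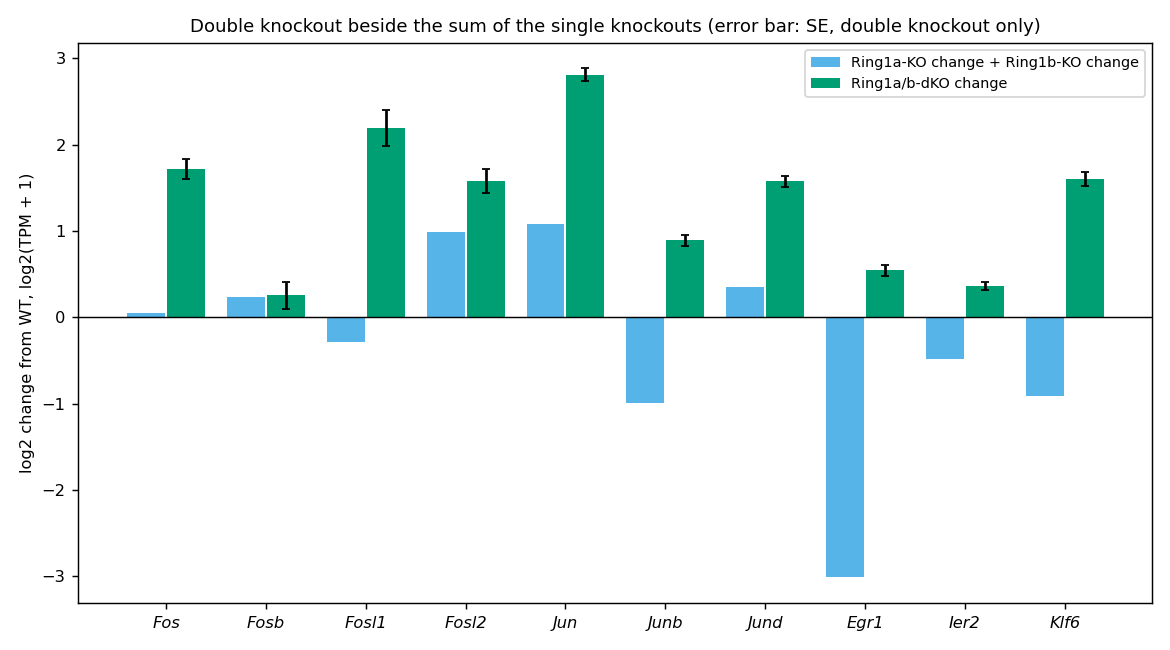
Sum of the log2 changes of Ring1a-KO and Ring1b-KO (blue bars) beside the log2 change of Ring1a/b-dKO (green bars, with SE) for each member. The bars point in opposite directions for Egr1, Junb, Klf6, Ier2 and Fosl1, and for Ier2 the double knockout bar came to 0.0025 under median ratio scaling.

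Compared with each other, Ring1b-KO and Ring1a-KO differed in 8 members, with 4 called higher in Ring1b-KO and 4 lower, beside 33.9% and 17.1% of all genes. Fos was higher in Ring1b-KO by 1.004 and Junb lower by 1.09 (log2 difference -1.09), with limma adjusted p of 4.95e-06 and 1.55e-09. The calls of Jun (-0.23) and Jund (0.19) were lost without Ring1a-KO replicate 2 for Jun (limma adjusted p = 0.0535), and without Ring1a-KO replicate 3 or Ring1b-KO replicate 3 for Jund (adjusted p = 0.0672 and 0.121). Median ratio scaling gave 2 higher and 4 lower, without the calls of Jund and Ier2 (limma adjusted p = 0.629 and 0.181). Quantile normalization gave 3 and 6, without Jund and with Fosb and Fosl1 called lower. Without Ring1a-KO replicates 2 and 3 the counts were 2 and 3, and the calls of Jun, Jund and Ier2 were lost. Against Ring1a/b-dKO, Pcgf-4KO had 3 members higher and 4 lower, beside 15.3% and 22.1% of all genes. Fos, Jund and Klf6 were higher in Pcgf-4KO, by 0.84, 0.27 and 0.42, and Egr1, Fosl1, Junb and Ier2 were lower, by -0.89, -0.67, -0.57 and -0.18. The call of Ier2 was lost under median ratio scaling (limma adjusted p = 0.123). Pcgf-6KO exceeded Pcgf-4KO in 8 members and was below it in 2, beside 28.8% and 24% of all genes. The largest of these differences were 1.65 for Fosl1, 1.28 for Junb and 1.25 for Fosl2, and the 2 lower genes were Egr1 (-0.82) and Ier2 (-0.42). Against Ring1a/b-dKO, Pcgf-6KO had the same counts of 8 higher and 2 lower, beside 28.3% and 29.6% of all genes, with Egr1 at -1.72 and Ier2 at -0.59. Both counts of 8 include Fosb, which passed the filter only through its Pcgf-6KO libraries.

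For each member the genes with the most similar pattern over the 6 group means were found, as the lowest root mean square difference of log2(TPM + 1) after each gene's mean was subtracted, among 11183 genes. For Jun these were Gsn (0.10), which codes for the actin-severing protein gelsolin, and Cldn4 (0.12), which codes for a tight junction protein. Gsn was at 10.5 TPM in WT and 220 TPM in Pcgf-6KO. For Fos they were Bcor (0.18), a subunit of a variant PRC1, and Dusp3 (0.20), for Fosl1 Dlk2 (0.21) and Fhl2 (0.23), and for Fosl2 Rassf1 (0.16) and Amotl2 (0.18). Jund was matched by Srr and Psd4 (both 0.10), Junb by Tent5b (0.14) and Parp3 (0.17), Klf6 by Rhob (0.20) and Plaur (0.24), and Fosb by Xkr6 (0.06) and Crebrf (0.10). Ier2 was matched by Ncor1 (0.06). Egr1 had the largest differences from its nearest genes, Pou3f1 (0.40) and Kif1a (0.41). Pou3f1 was at 16.7 TPM in WT, 4.32 TPM in Ring1a-KO and 12.9 TPM in Ring1a/b-dKO. The difference is not scaled to how much a gene varies. It is therefore small for members that vary little on this scale, such as Ier2 and Fosb, and does not rank the members by quality of match.

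Of 35 other immediate early genes, 33 were tested, and 27 were called higher and 5 lower in Ring1a/b-dKO, with Pcgf-4KO at 26 higher and 3 lower and Pcgf-6KO at 26 higher and 5 lower, beside the background shares given above. The shares called higher were 81.8%, 78.8% and 78.8% of the list, against 48.6%, 47.1% and 51.7% of all genes. The median log2 changes were 0.91, 0.95 and 1.77. Ccn1, a matricellular protein gene, was at 18.6 ± 0.09 TPM (SD, n = 3) in WT, 207 ± 0.84 TPM in Ring1a/b-dKO, 176 ± 2.52 TPM in Pcgf-4KO and 559.8 ± 28.3 TPM in Pcgf-6KO. Errfi1, a feedback inhibitor of the epidermal growth factor receptor, was at 7.50 ± 0.79 TPM in WT, 68.4 ± 0.67 TPM in Ring1a/b-dKO and 61.4 ± 1.38 TPM in Pcgf-4KO. Atf3, a stress-induced partner of Jun, went from 1.24 ± 0.22 TPM in WT to 39.2 ± 3.33 TPM in Pcgf-6KO. Sgk1, a kinase gene induced by serum and glucocorticoids, fell in Ring1b-KO, Ring1a/b-dKO, Pcgf-4KO and Pcgf-6KO, from 185 ± 3.66 TPM in WT to between 50.4 and 73.0 TPM. The cytokine signalling inhibitor gene Socs3 fell from 63.2 ± 0.86 to 43.1 ± 0.85 TPM in Pcgf-4KO and 19.6 ± 1.07 TPM in Pcgf-6KO.

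In Ring1a-KO, 13 of the same list were called higher and 4 lower, shares of 39.4% and 12.1% beside 12.3% and 10.8% of all genes. In Ring1b-KO the counts were 14 and 9, or 10 and 11 under quantile normalization. The main shares there were 42.4% and 27.3%, beside 34.7% and 17.1% of all genes. The 4 lower genes of Ring1a-KO were 2 without its replicates 2 and 3. Klf4, a pluripotency factor that is also growth-factor responsive, fell from 16.0 ± 0.66 to 3.34 ± 0.23 TPM in Ring1a-KO and rose to 61.3 ± 0.41 TPM in Ring1b-KO. Gadd45g fell in both, from 16.4 ± 1.75 to 7.41 ± 0.96 TPM in Ring1a-KO and 5.51 ± 0.76 TPM in Ring1b-KO. Arc (3.66 ± 0.07 to 8.83 ± 1.37 TPM) and Gadd45b (11.9 ± 0.70 to 26.0 ± 1.49 TPM) rose in Ring1a-KO, and the antiproliferative gene Btg2 rose from 11.6 ± 0.73 to 30.3 ± 0.67 TPM in Ring1b-KO.

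Of 19 other leucine zipper genes whose products can pair with Fos or Jun, 18 were tested. They were called 13 higher and 1 lower in Ring1a/b-dKO (11 and 4 under median ratio scaling, 10 and 3 under quantile normalization), 16 and 0 in Pcgf-4KO (11 and 2, and 8 and 1), and 13 and 1 in Pcgf-6KO (12 and 3 under both). The shares called higher were 72.2%, 88.9% and 72.2%, against 48.6%, 47.1% and 51.7% of all genes. Atf7 was at 3.63 ± 1.25 TPM in WT, 12.1 ± 0.65 TPM in Ring1b-KO, 13.4 ± 4.32 TPM in Pcgf-4KO and 19.7 ± 3.49 TPM in Pcgf-6KO (SD, n = 3). Batf3 rose from 1.05 ± 0.78 to 6.43 ± 1.37 TPM in Ring1a/b-dKO, and Atf3 to 10.2 ± 3.16 TPM. Counts were 3 higher and 2 lower in Ring1a-KO (3 and 4 under quantile normalization), shares of 16.7% and 11.1% beside 12.3% and 10.8% of all genes. Fewer were called there without replicates 2 and 3, which leaves 1 library. In Ring1b-KO they were 7 and 3 (5 and 6 under median ratio scaling, 3 and 5 under quantile normalization). The main shares there were 38.9% and 16.7%, beside 34.7% and 17.1%.

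The 21 genes of upstream kinases and serum response factor partners were called in both directions, and the balance depended on the scaling. In Ring1a/b-dKO, 9 were called higher and 3 lower, and 5 and 11 under median ratio scaling. In Pcgf-4KO it was 10 and 4 against 3 and 8, and in Pcgf-6KO 5 and 7 against 3 and 14. The shares called higher in Ring1a/b-dKO and Pcgf-4KO, 42.9% and 47.6%, were near the 48.6% and 47.1% of all genes, and that in Pcgf-6KO was 23.8% beside 51.7%. Ring1a-KO had 3 higher and 1 lower, or 7 and 1 over nuclear protein-coding genes only, and the 3 became 1 when WT replicate 2 or 3 or Ring1a-KO replicate 1 or 3 was left out. Ring1b-KO had 3 and 6, or 1 and 10 under median ratio scaling. The main shares were 14.3% higher and 4.8% lower in Ring1a-KO, beside 12.3% and 10.8% of all genes. In Ring1b-KO they were 14.3% and 28.6%, beside 34.7% and 17.1%. Mapk3, which codes for the kinase ERK1, fell in all 5 knockouts, from 61.0 ± 0.17 TPM (SD, n = 3) in WT to between 26.2 ± 0.79 TPM in Pcgf-6KO and 52.9 ± 3.02 TPM in Ring1a-KO. Elk3, a ternary complex factor gene, rose from 7.37 ± 0.19 to 14.2 ± 0.61 TPM in Ring1a-KO and fell to 2.31 ± 0.49 TPM in Ring1b-KO. Srf, which codes for the serum response factor, rose from 20.1 ± 1.43 to 33.6 ± 2.00 TPM in Pcgf-6KO, and Map2k4, a kinase gene of the Jun kinase cascade, from 33.3 ± 1.74 to 69.3 ± 9.40 TPM.

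Of 14 textbook AP-1 target genes, 11 were tested, and 5 were called higher and 4 lower in Ring1a/b-dKO (5 and 6 under median ratio scaling), with 6 higher and 5 lower in each of the Pcgf knockouts. The shares called higher, 45.5%, 54.5% and 54.5%, were near those of all genes (48.6%, 47.1% and 51.7%), and the shares called lower were 36.4%, 45.5% and 45.5% beside 15.8%, 17.9% and 22.5%. In Ring1a-KO the counts were 4 higher and 2 lower, shares of 36.4% and 18.2% beside 12.3% and 10.8% of all genes. In Ring1b-KO they were 5 and 6 (3 and 6 under quantile normalization), shares of 45.5% and 54.5% beside 34.7% and 17.1%. The urokinase receptor gene Plaur rose from 25.2 ± 0.89 TPM in WT to 125 ± 5.61, 152 ± 7.27 and 286 ± 7.45 TPM in Ring1a/b-dKO, Pcgf-4KO and Pcgf-6KO (SD, n = 3). The matrix protease gene Mmp9 rose from 1.503 ± 0.55 to 14.9 ± 2.44, 5.55 ± 0.99 and 10.6 ± 0.23 TPM in the same groups. The cyclin gene Ccnd1 fell from 70.4 ± 2.09 to 29.0 ± 0.57, 33.8 ± 0.75 and 13.4 ± 1.51 TPM. Spp1, which codes for osteopontin, fell from 494 ± 8.82 to 145 ± 5.79 TPM in Pcgf-6KO.

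**Figure D5:**
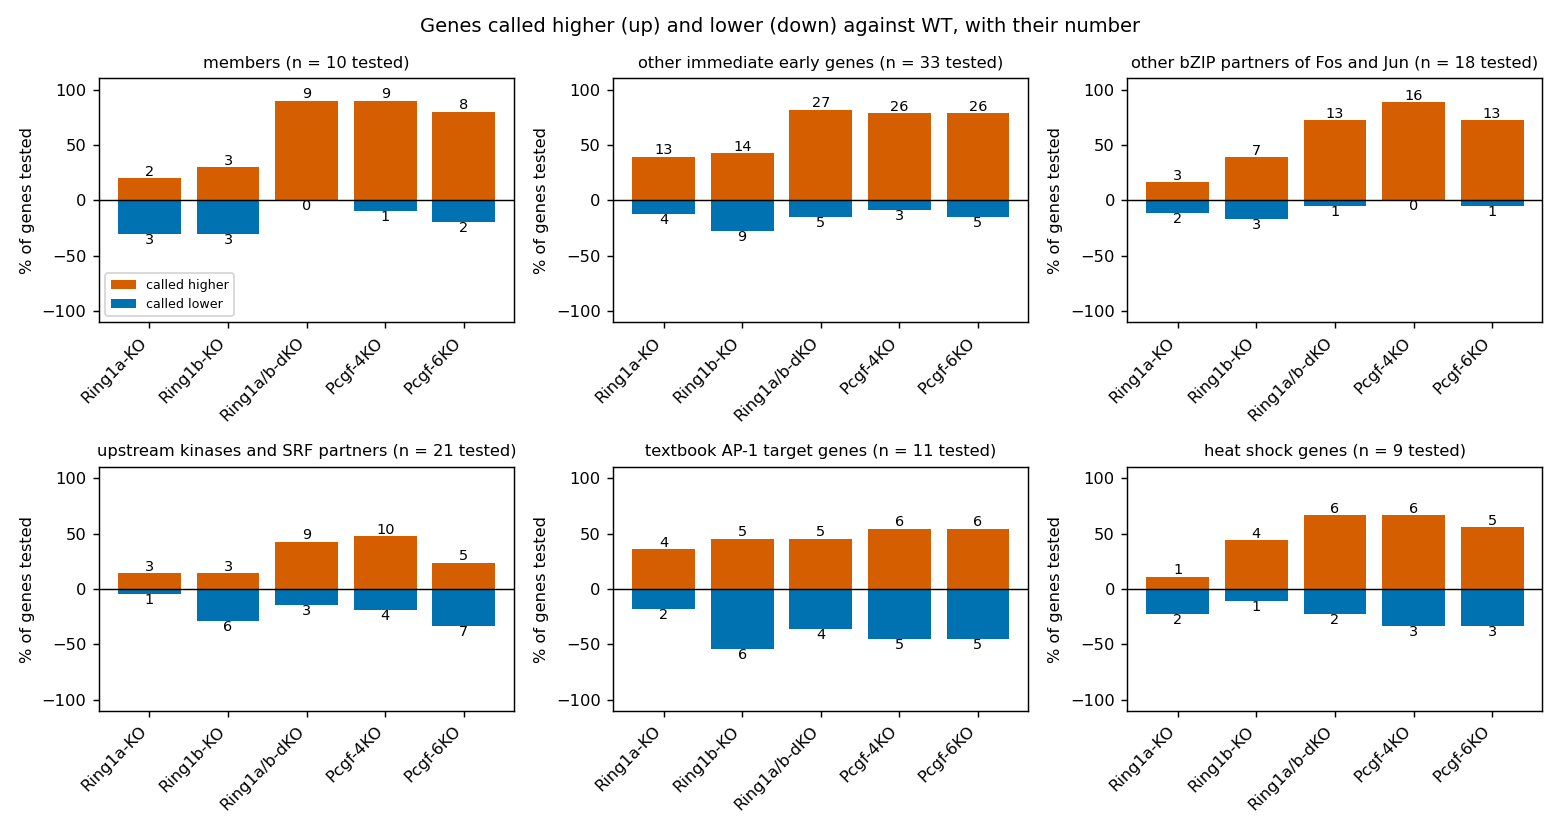
Percent of tested genes called higher (above 0) and lower (below 0) against WT in the 5 knockouts, for the members and 5 related gene lists, with the number of genes at each bar. Other immediate early genes reach 27 of 33 called higher in Ring1a/b-dKO, while the kinase list, whose majority direction in Ring1a/b-dKO and Pcgf-4KO flips under median ratio scaling, and the AP-1 targets are split.

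Heat shock genes and markers of other cell types were measured in the same libraries, and their part in the members' changes was not tested. Of 9 heat shock genes, 6 were called higher and 2 lower in Ring1a/b-dKO, with Pcgf-4KO at 6 higher and 3 lower and Pcgf-6KO at 5 higher and 3 lower, and 5 and 4 in the first 2 under median ratio scaling. The shares called higher were 66.7%, 66.7% and 55.6%, beside 48.6%, 47.1% and 51.7% of all genes. Ring1a-KO had 1 higher and 2 lower (3 and 1 over nuclear protein-coding genes only) and Ring1b-KO 4 and 1 (3 and 4 under median ratio scaling). The main shares were 11.1% and 22.2% in Ring1a-KO, beside 12.3% and 10.8% of all genes. In Ring1b-KO they were 44.4% and 11.1%, beside 34.7% and 17.1%. The summed TPM of the heat shock genes was 7652 to 7816 in WT, 9901 to 10044 in Ring1a/b-dKO, 10543 to 11002 in Pcgf-4KO and 10521 to 10833 in Pcgf-6KO. The small heat shock protein gene Hspb1 rose from 347 ± 2.05 to 2770 ± 117 TPM (SD, n = 3) in Pcgf-6KO, and Hspd1 fell from 739.8 ± 24.2 to 270.3 ± 6.01 TPM. Hspa1a was at 2.74 ± 0.37 TPM in WT and 24.2 ± 2.15 TPM in Pcgf-6KO, a value that is uncertain because its near-identical copy Hspa1b shares reads. The 9 trophoblast markers were all called higher in Ring1b-KO, Ring1a/b-dKO, Pcgf-4KO and Pcgf-6KO, beside 34.7%, 48.6%, 47.1% and 51.7% of all genes. On average 5 of the 9 reached 1 TPM in WT and all 9 in those knockouts. Some thus passed the filter only through knockout libraries, and their calls there were bound up with their entry. In Ring1a-KO, 4 of the 9 were called higher and 1 lower, beside 12.3% and 10.8%. Their summed TPM was 31.9 to 34.4 in WT, 33.85 to 37.99 in Ring1a-KO and 84.3 to 85.4 in Ring1b-KO. It was 283 to 301 in Ring1a/b-dKO, 329 to 340 in Pcgf-4KO and 749 to 769 in Pcgf-6KO. Summed endoderm markers were at 2.68 to 3.11 TPM in WT, 32.3 to 34.7 TPM in Ring1b-KO and 34.4 to 41.6 TPM in Pcgf-6KO. Of 8, 6 were tested, and 6 were called higher in Ring1b-KO, Ring1a/b-dKO, Pcgf-4KO and Pcgf-6KO, beside the same shares of all genes. On average 1 of the 8 reached 1 TPM in WT and 1 in Ring1a-KO. Ring1b-KO had 5, and Ring1a/b-dKO, Pcgf-4KO and Pcgf-6KO had 6 each. Where an endoderm marker passed the filter only through such groups, its calls there were bound up with its entry. The 10 fibroblast and feeder cell markers summed to 33.5 to 35.5 TPM in WT, 38.5 to 43.7 TPM in Ring1a-KO, 49.5 to 56.3 TPM in Ring1b-KO, 46.3 to 46.7 TPM in Ring1a/b-dKO, 27.2 to 30.9 TPM in Pcgf-4KO and 29.4 to 32.0 TPM in Pcgf-6KO. Of the 5 that were tested, 5 were called higher in Ring1b-KO and 4 in Ring1a/b-dKO, beside 34.7% and 48.6% of all genes. On average 2 of the 10 reached 1 TPM in WT and 5 in Ring1b-KO, so some calls were bound up with entry through the filter. Without the filter, 2 of the 10 were called lower in Ring1b-KO and 2 in Ring1a/b-dKO, where the main fit had 0. Pcgf-4KO had 2 higher and 2 lower (all genes 47.1% and 17.9%) and Pcgf-6KO 2 higher and 1 lower (51.7% and 22.5%). On average 8 of the 10 were below 1 TPM in WT, 5 in Ring1a/b-dKO and 6 in Pcgf-6KO.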

How the data were processed

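Expression was analysed in 18 libraries of mouse embryonic stem cells, 3 for each of 6 labelled genotypes. The deposited table gives TPM for 56551 genes, which the authors computed before deposit. RSEM, edgeR and TopHat2 2.1.1 appear in the submitters' processing notes, with GRCm38.p5 as genome build. The sources used here give neither the role of each tool nor the annotation release or the use of strand. Columns were matched to samples by label.

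Values were tested as log2(TPM + 1) with limma 3.58.1 in R 4.3.3, with 1 mean per genotype, a mean-variance trend and 12 residual degrees of freedom, on the 17842 genes that reached 1 TPM in 3 or more libraries. P-values were adjusted by the Benjamini-Hochberg method within each comparison. The interaction is the double knockout change minus the sum of the single knockout changes. The fit was tested on simulated data. Alternatives were a pseudocount of 0.1, no filter, median ratio scaling, quantile normalization, nuclear protein-coding genes only, a replicate block, only the groups compared, leaving out each library, and, added after seeing the data, leaving out Ring1a-KO replicates 2 and 3.

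The members and gene lists were chosen with earlier results of these data known. All members are described. Within each list, the genes described come from up to 2 per knockout and direction with the largest called change, a mean of at least 5 TPM in WT or the knockout, and no overlap with WT. The 2 nearest genes by pattern are named per member, except that 1 of those for Ier2 is not reported here. Gene coordinates are from GENCODE vM21 on GRCm38, promoter sequences from RefSeq on GRCm38.p6, counted where the 2 annotated starts lie within 50 bases of each other.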

Additional observations from a re-analysis of the deposited data

Results flagged for a closer look

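In 9 members the effect of losing 1 Ring1 protein differed with the presence of the other, as tested by the limma interaction term. The interaction on the log2 scale was 3.56 for Egr1, 2.51 for Klf6, 2.47 for Fosl1, 1.89 for Junb, 1.73 for Jun, 1.67 for Fos, 1.22 for Jund, 0.85 for Ier2 and 0.59 for Fosl2. Among all genes tested, 33.2% were called in the same direction, so a positive interaction by itself was common. Egr1 went furthest, since its single knockout levels of 4.28 ± 0.23 and 5.73 ± 0.21 TPM (SD, n = 3) lay below WT and the double knockout level of 23.8 ± 0.72 TPM above it. The cause was not tested.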

How the results depend on the processing

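Of 60 member results against WT and for the interaction, 47 kept their side of the threshold under every alternative run. No called value among these 47 changed direction. Values not called could change sign, as that of Fosb in Ring1a/b-dKO did (0.26 to -0.13). A value counts as reversed below only if its sign changed and it was called in the main fit or the alternative. The counts of members called against WT and for the interaction kept within 1.5 times of their value under every alternative except quantile normalization. There Ring1b-KO had 1 higher and 5 lower against WT instead of 3 and 3. Between Ring1b-KO and Ring1a-KO, 4 higher became 2 under median ratio scaling. Against WT, leaving out 1 library at a time gave 3 to 4 lower in Ring1a-KO and in Ring1b-KO and 8 to 9 higher in Pcgf-4KO. It gave 8 to 9 higher for the interaction, and the other counts against WT and for the interaction were unchanged. Reversed values were those of Ier2 in Pcgf-4KO against WT (-0.13, median ratio scaling), Ier2 in Pcgf-6KO against Ring1a-KO (-0.20, median ratio scaling, and -0.094, quantile normalization), Egr1 in Pcgf-6KO against Ring1b-KO (-0.006 and -0.12 under the same 2) and Fosb in Ring1a/b-dKO against Ring1a-KO (-0.37, quantile normalization). The cause was not tested. Replicate numbers did not pair the libraries: over 45 same-numbered library pairs in all 15 pairs of groups, deviations from the group means correlated between -0.11 and 0.07, and 16 of the 45 were best with their own number. With the replicate block, Fosb in Pcgf-4KO was no longer called (0.39, limma adjusted p = 0.0519), which made 8 members higher there, and it changed no other call against WT or for the interaction. TPM hides depth, which limits Fosb, Fosl2, Fosl1 and Fos most, with means of 0.19 to 1.65 TPM in WT.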
